A study of Mus musculus with 3 samples.

Results

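The limb muscle lineage genes described here are Pax3, Pax7, Lbx1, Met, Myf5, Myf6, Myod1 and Myog. They were examined in the peak lists of RNA polymerase II (RNAP2) and of Med12, a subunit of the Mediator complex, from mouse distal forelimbs at E12.5. The 8 genes are set by name, among 22367 protein-coding genes of the GENCODE vM1 annotation of mm9. A locus is the span of a gene together with 100 kb on each side of its start, and a peak belongs to it where at least 1 bp is shared. Under this rule 16 of 20479 RNAP2 peaks and 2 of 10634 Med12 peaks lay at the 8 loci. ChIP-seq was done with 1 library for each antibody, and an input library completes the 3 samples. No treatment of the animals is named in the labels, and neither a strain nor a genotype nor the number of embryos is given there. All samples are the same tissue and stage, so the series compares antibodies and not conditions, and no value has a replicate error. Each peak carries a score, the -log10 of its p-value multiplied by 10, which ranks peaks within a list and cannot be compared between lists. The number of reads under a peak is not known from the lists. Binding weaker than the lowest score of 40 would not be seen, and in a mixed tissue fewer bound cells and less binding per cell cannot be told apart.

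Limb muscles do not arise from the limb mesenchyme. Their precursors leave the somites, migrate into the limb bud and form the dorsal and ventral muscle masses. Pax3 is a paired-box transcription factor of the migrating precursors, and Pax7 is its close relative in later muscle progenitors. Lbx1 is a homeobox factor needed for their lateral migration, and Met is the receptor for hepatocyte growth factor (Hgf), which lets them detach from the somite. Myf5, Myf6 (also called Mrf4), Myod1 and Myog are the myogenic regulatory factors, basic helix-loop-helix proteins that bind E-boxes and commit cells to muscle (Myf5, Myod1) or drive differentiation (Myog, Myf6).

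RNAP2 peaks were found mainly at Pax3 and Lbx1, and of the 4 myogenic regulatory factors Myf6 alone had a peak of its own. Pax3 had 7 RNAP2 peaks and Lbx1 had 3 of its own, whereas Pax7, Met and Myf6 had 1 each. The median protein-coding locus held 2 RNAP2 peaks of any kind. Med12 was present at Met alone, in introns and with low scores. The 16 RNAP2 peaks divide into 4 at a start of one of the 8 genes, 5 elsewhere in the gene bodies, 4 between genes and 3 at the start of another gene. The map of peaks along the 8 loci shows this arrangement.

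**Figure D1:**
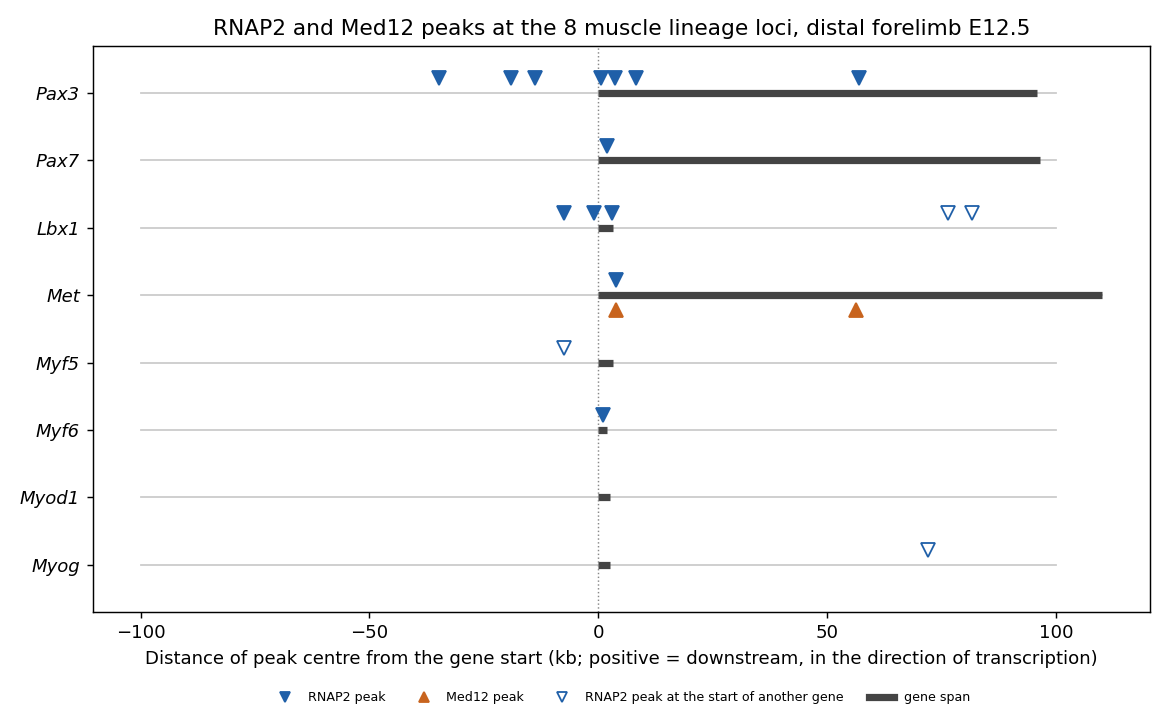
RNAP2 peaks (downward triangles) and Med12 peaks (upward triangles) by the distance of their centres from the gene start in kb, positive in the direction of transcription, with the gene span as a thick bar. Open triangles are RNAP2 peaks at the start of another gene, and the peak at Myf6 appears in the row of Myf5 as well. Pax3 carries 7 RNAP2 peaks and Myod1 has none of either list.

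Sequences in front of the starts show how much these promoters differ in CpG dinucleotides, which are dense at many active promoters. The 150 bases upstream of the GENCODE start in mm9 are given 5′ to 3′ on the strand of the gene for Pax3, whose start lay under an RNAP2 peak, for Lbx1, with a peak close by, and for Met, Myod1 and Myog, which had none there. Capitals mark each CG.
Pax3, upstream of the start, chr1:78193710-78193859, strand -: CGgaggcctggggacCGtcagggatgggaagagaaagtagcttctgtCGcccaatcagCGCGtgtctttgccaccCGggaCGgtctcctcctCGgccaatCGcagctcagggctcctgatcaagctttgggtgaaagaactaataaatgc
Lbx1, upstream of the start, chr19:45310302-45310451, strand -: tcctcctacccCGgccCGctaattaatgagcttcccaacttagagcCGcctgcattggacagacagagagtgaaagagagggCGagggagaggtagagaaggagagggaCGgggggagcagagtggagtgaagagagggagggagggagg
Met, upstream of the start, chr6:17413650-17413799, strand +: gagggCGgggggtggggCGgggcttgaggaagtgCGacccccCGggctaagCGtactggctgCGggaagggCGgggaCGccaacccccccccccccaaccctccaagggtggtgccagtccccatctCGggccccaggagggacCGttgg
Myod1, upstream of the start, chr7:53631694-53631843, strand +: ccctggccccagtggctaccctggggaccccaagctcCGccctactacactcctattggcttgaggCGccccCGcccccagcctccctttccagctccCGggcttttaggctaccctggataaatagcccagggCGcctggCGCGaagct
Myog, upstream of the start, chr1:136186431-136186580, strand +: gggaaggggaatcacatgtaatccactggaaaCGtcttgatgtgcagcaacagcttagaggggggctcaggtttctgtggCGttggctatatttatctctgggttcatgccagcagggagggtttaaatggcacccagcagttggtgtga
They hold 9 CG in Pax3, 5 in Lbx1, 10 in Met, 7 in Myod1 and 2 in Myog. In Myf5 and Myf6 the same stretch holds 2 each, and in Pax7 it holds 6. The letters TATAAA, searched on the strand of the gene in the 50 bases upstream, were found in 0 of the 8 and in 3.09% of protein-coding genes. Myf6 holds them farther upstream, within the 150 bases but outside the 50 searched.

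Distal peaks, those with no annotated start of any gene within 1 kb, were found at Pax3, Lbx1 and Met, and the central 300 bases of 4 of them are given in mm9 on the forward strand. The site of Met is shown because it is the one that both lists share, and the others because they lie between genes upstream of Pax3 and Lbx1 with scores of at least 100. Capitals mark E-boxes, the letters CANNTG, which read the same on both strands as a pattern.
Met, intron 1, chr6:17417615-17417914, strand +: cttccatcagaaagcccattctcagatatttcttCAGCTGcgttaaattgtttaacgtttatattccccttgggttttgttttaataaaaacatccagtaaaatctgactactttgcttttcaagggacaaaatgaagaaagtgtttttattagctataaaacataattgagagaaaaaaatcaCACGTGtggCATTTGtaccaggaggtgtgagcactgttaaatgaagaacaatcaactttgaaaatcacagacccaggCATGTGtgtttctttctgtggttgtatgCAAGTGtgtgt
Pax3, upstream, nearer site, chr1:78207342-78207641, strand +: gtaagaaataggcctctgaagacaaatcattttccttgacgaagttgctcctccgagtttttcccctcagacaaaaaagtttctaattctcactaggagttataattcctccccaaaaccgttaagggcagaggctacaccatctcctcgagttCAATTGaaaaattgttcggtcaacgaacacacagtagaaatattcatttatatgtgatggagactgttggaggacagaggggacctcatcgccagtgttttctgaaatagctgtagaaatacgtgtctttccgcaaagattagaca
Pax3, upstream, farther site, chr1:78212549-78212848, strand +: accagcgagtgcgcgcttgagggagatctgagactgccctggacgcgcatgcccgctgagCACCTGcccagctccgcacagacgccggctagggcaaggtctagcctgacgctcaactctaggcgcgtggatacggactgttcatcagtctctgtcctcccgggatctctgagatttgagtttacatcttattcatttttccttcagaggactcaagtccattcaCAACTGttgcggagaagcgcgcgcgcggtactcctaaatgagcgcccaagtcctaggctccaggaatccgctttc
Lbx1, upstream, chr19:45317530-45317829, strand +: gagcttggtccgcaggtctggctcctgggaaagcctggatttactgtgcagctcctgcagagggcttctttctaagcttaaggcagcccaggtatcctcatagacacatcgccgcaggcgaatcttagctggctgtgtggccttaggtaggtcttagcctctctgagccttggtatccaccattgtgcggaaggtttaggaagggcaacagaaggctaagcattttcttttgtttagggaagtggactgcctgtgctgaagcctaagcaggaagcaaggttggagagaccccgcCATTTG
The Met sequence holds 5 E-boxes, one of which is CAGCTG, a form preferred by several myogenic factors. The nearer and farther Pax3 sites hold 1 and 2 and the Lbx1 site 1. An E-box was also present in the central 300 bases of 81.0% of all 10692 distal RNAP2 peaks, and CAGCTG in 17.6%, so these matches are a description of the letters and not of binding. Of the distal RNAP2 peaks at the 8 loci, CAGCTG occurred in that of Met and in 1 of Pax3, the peak at chr1:78135945-78137564 in intron 4.

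At the starts, an RNAP2 peak within 1 kb of an annotated transcript start was present for 4 of the 8 genes, Pax3, Pax7, Lbx1 and Myf6. At 4 of 8, this is close to the share over all protein-coding genes, 42.2% (95% Wilson interval 41.6 to 42.8%). The position of these peaks differed from the usual one. A peak that covered a start was present for 40.7% of protein-coding genes, which is 96.5% of the 9439 genes with a peak within 1 kb, but among the 4 called genes Pax3 alone had one. In the others the nearest own start lay 473 bp (Myf6), 476 bp (Lbx1) and 867 bp (Pax7) outside the peak, so of these Pax7 alone was close to the limit of 1 kb. The nearest cases beyond it were Met, at 3168 bp, and Myf5, at 7053 bp.

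Med12 was listed within 1 kb of a start for 0 of the 8 genes, against 9.37% of protein-coding genes, and it covered a start for 0 of 8, against 7.54%. Both proteins together were listed at a start for 0 of 8, against 8.66%. With shares this low, an absence from 8 genes differs little from the background.

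Of the transcription factors of the precursors, Pax3 had the most RNAP2 peaks within 100 kb, 7 against 5 at the Lbx1 locus, but with 200 kb on each side Lbx1 had 8 and Pax3 7. The gene, ENSMUSG00000004872.9, runs from its start at 78193709 on the minus strand of chromosome 1 to 78097842. The peak at chr1:78192164-78194137 covered the start with exon 1 and had a score of 283, which stood above 41.2% of the highest start scores of the 9439 called genes. Downstream of it, a peak of 3292 bp at chr1:78188435-78191726 with a score of 237 ran from intron 2 over exons 3 and 4 into intron 4. Another pair lay in intron 4, at chr1:78184154-78186855 with a score of 178 and at chr1:78135945-78137564 with a score of 89.6. The first of this pair was 2702 bp wide. RNAP2 therefore marked several places along the gene, and its peaks covered 9.55% of the span.

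Upstream of Pax3, 3 RNAP2 peaks lay between genes. Relative to the start their centres were at -13782 bp, -18989 bp and -34811 bp, where negative is upstream, and their scores were 128, 160.3 and 40.2. Pax3 had the nearest coding start to each, and no other protein-coding gene starts within the locus. The first pair scored above 72.3% and 78.8% of all distal RNAP2 peaks, whereas the last was close to the lowest score in the list. In all Pax3 had 6 distal RNAP2 peaks, and 5 or more were present for 1 of the 8 genes and for 4.31% of protein-coding loci. Only 9.17% of protein-coding loci held more RNAP2 peaks of any kind than the 7 of Pax3. None of them overlapped Med12, and the nearest Med12 peak was 228947 bp from the start with a score of 41.2.

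Pax7 (ENSMUSG00000028736.6), which resembles Pax3 in structure and in size, had a single RNAP2 peak. It lay at chr4:139386976-139388055 in intron 1, with a score of 62.9, above 7.12% of the highest start scores of called genes. The GENCODE gene start at 139389445 was 1390 bp from it, and the start of the shorter transcript 867 bp. With the start of the RefSeq promoter table, which was matched by sequence to mm9, the distance was 828 bp. No distal RNAP2 peak and no Med12 peak was found at the locus, and the nearest Med12 peak, 209983 bp away, lay at the start of Aldh4a1.

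Lbx1 (ENSMUSG00000025216.8) had peaks on either side of its start, which lies at 45310301 on chromosome 19. The peak at chr19:45310777-45311840, in front of the start, had a score of 72.9, and the one at chr19:45306265-45308481, over exon 2 and beyond the end of the gene, had a score of 146. Another at chr19:45317065-45318294, centred at -7378 bp between genes, had a score of 149. The pair without a start scored above 76.2% and 76.7% of distal RNAP2 peaks. The peak nearest to the start was thus the lowest of the 3. At the other end of the locus RNAP2 peaks with scores of 48.7 and 114 lay at starts of Tlx1 and of the noncoding Gm20424, and the former is 81357 bp from the Lbx1 start. The first peak beyond the locus, 127432 bp away, was at the start of Btrc. RNAP2 peaks covered 41.7% of the span of Lbx1, a gene of 3124 bp. No Med12 peak was listed at Lbx1.

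Met (ENSMUSG00000009376.8) was the one gene of the 8 with Med12. The RNAP2 peak at chr6:17417275-17418254, score 60.5, and the Med12 peak at chr6:17417165-17418101, score 42.7, shared 827 bp of intron 1. Their centres were 3964 bp and 3833 bp downstream of the gene start at 17413800. Another Med12 peak, at chr6:17469587-17470779 in intron 4 with a score of 51.2, had no RNAP2 peak. These are low values within both lists. The RNAP2 peak scored above 36.6% of distal RNAP2 peaks, and the Med12 peaks above 13.5% and 41.2% of distal Med12 peaks. A distal site with both lists was present at 1 of the 8 loci, against 12.8% of protein-coding loci. The Med12 score of 42.7 is below 50, which corresponds to the p-value of 1e-05 in the methods of the study, and the shared site is lost when 50 is required.

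Among the myogenic regulatory factors, Myf5 and Myf6 are neighbours on the minus strand of chromosome 10. Their starts are at 106923190 and 106931785, and both loci hold the same single RNAP2 peak, chr10:106930243-106931312, with a score of 81.2. It lay within Myf6 (ENSMUSG00000035923.3), over exons 1 to 3, and covered 57.2% of that short gene without reaching its start. For Myf5 (ENSMUSG00000000435.1) the same peak was 7053 bp upstream. The score stood above 11.7% of the highest start scores of called genes. The nearest Med12 peak, at a start of Lin7a with a score of 41.1, was 213403 bp from the Myf5 start. Neither locus held a distal peak of RNAP2.

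Myod1 (ENSMUSG00000009471.3) and Myog (ENSMUSG00000026459.4), the factors of commitment and of differentiation, had no RNAP2 peak in the gene or near it. The Myod1 locus around 53631844 on chromosome 7 held no peak of either list, which was the case at 1 of the 8 loci and at 16.8% of protein-coding loci. The nearest RNAP2 peak was 234108 bp from the Myod1 start with a score of 67.2, farther than in 87.4% of protein-coding genes, and the nearest Med12 peak was 354082 bp away with a score of 105. The other protein-coding gene that starts within the Myod1 locus, Kcnc1, had no RNAP2 peak at its start either. For Myog, at 136186581 on chromosome 1, the one RNAP2 peak of the locus lay 71372 bp away over the start of Tmem183a and scored 1090.5, the highest of the 16. Of the 5 other protein-coding genes that start within the Myog locus, Tmem183a alone had RNAP2 at its start, so the peaks of this locus belong to a neighbour.

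Taking the loci as wholes, an RNAP2 peak of any kind was present at 7 of 8, against 77.2% of protein-coding loci, and a Med12 peak at 1 of 8, against 54.7%. A distal RNAP2 peak was present at 3 of 8, Pax3, Lbx1 and Met, against 40.7%, and a distal Med12 peak at 1 of 8, against 34.9%. The counts for RNAP2 are near the background, while that for Med12 is below it, a description of 8 genes that share 1 tissue and 1 library for each antibody. The 9 distal RNAP2 peaks, 6 of them from Pax3, had a median score of 146, against 76.2 over all distal RNAP2 peaks, and 7 of the 9 were above the latter. These 7 came from Pax3 and Lbx1 alone, and the Met peak, at 60.5, was below 76.2. The plot of scores by gene shows that the distal peaks of Pax3 and Lbx1 reached higher than the start peaks of Pax7, Lbx1 and Myf6.

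**Figure D2:**
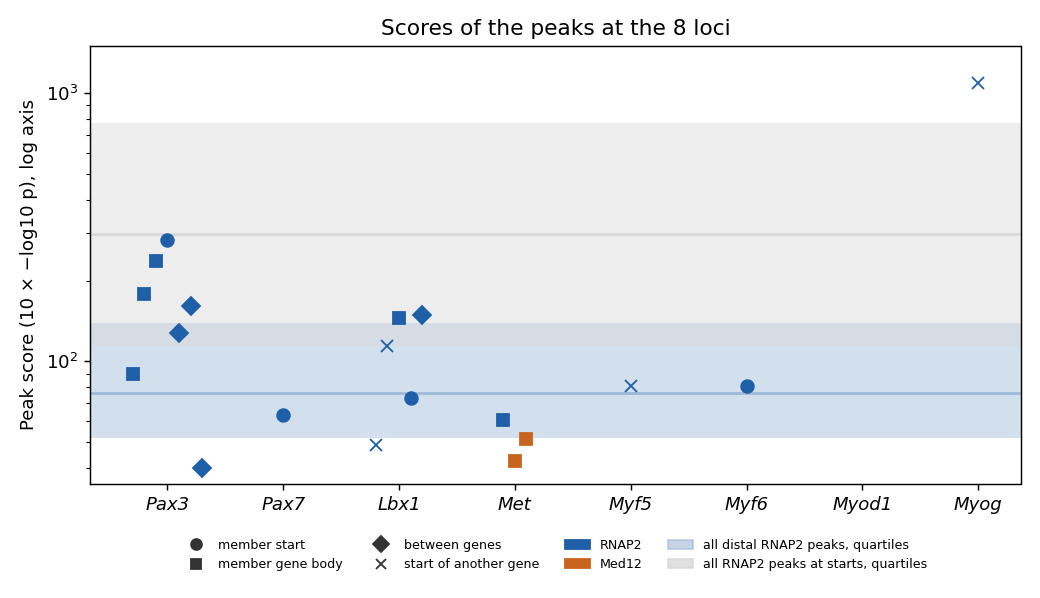
Score of each peak (-log10 of p multiplied by 10, log axis) by gene, with RNAP2 in blue and Med12 in orange and the marker giving the place of the peak. Bands are the quartiles and lines the medians of all distal RNAP2 peaks (blue, median 76.2) and of all RNAP2 peaks at starts (grey, median 299.6), and the highest symbol, 1090.5 at the Myog locus, belongs to Tmem183a.

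The CpG content of the distal RNAP2 peaks was not used in the choice of genes. Of the 9 peaks 6 came from Pax3, 2 from Lbx1 and 1 from Met, so most share a locus, and those nearest to an own start were 1687 bp (Pax3) and 1820 bp (Lbx1) from it. Their ratio of observed to expected CpG was above the median of all distal RNAP2 peaks, 0.219, in 9 of 9. It was highest in the farther upstream site of Pax3, at 0.712, and in the peak over the end of Lbx1, at 0.70, and lowest in the Met intron, at 0.293. These values stood above 98.4%, 98.3% and 73.1% of distal RNAP2 peaks. Of the 9 peaks 6 were also wider than the median of 1231.5 bp.

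CpG content at the starts themselves went with RNAP2 over the whole annotation. Within 1 kb on each side of the gene start, genes with a ratio under 0.3 had an RNAP2 peak in 5.48% of 7847 cases, those from 0.3 to 0.6 in 43.8% of 6969, and those of 0.6 or more in 78.9% of 7551. The 8 genes were spread over these classes. Lbx1 (0.749), Met (0.678) and Pax7 (0.607) were in the highest class, and 2 of these 3 had a peak. Pax3 (0.592), Myod1 (0.536) and Myf5 (0.376) were in the middle class, where Pax3 had one. Myog (0.296) and Myf6 (0.289) were in the lowest, where Myf6 had one. Met, whose start was richer in CpG than that of 77.5% of protein-coding genes, thus lacked a peak at its start, while Myf6, with a lower ratio than most, had one in its gene body.

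**Figure D3:**
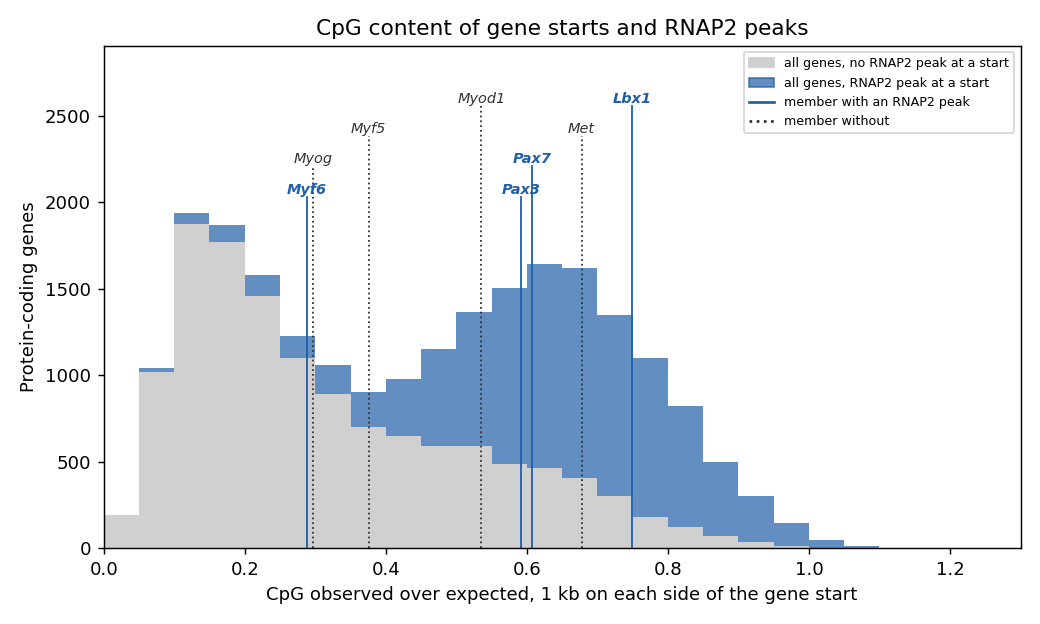
Number of protein-coding genes by CpG observed over expected within 1 kb on each side of the gene start, stacked by the presence (blue) or absence (grey) of an RNAP2 peak at a start. Vertical lines mark the 8 genes, solid where RNAP2 was listed, and Met at 0.678 and Lbx1 at 0.749 lie in the range where most genes carry RNAP2.

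The other genes of the muscle programme were taken as lists. Of 18 regulators and migration genes, among them homeobox factors, guidance receptors and growth factor receptors, 12 (66.7%) had an RNAP2 peak at a start, against the 42.2% of all protein-coding genes, and in 12 of 12 it covered a start. Their median start score was 443, against 77.05 for the 4 called lineage genes and 383 over called protein-coding genes. Med12 was at 0 of 18 starts, against 9.37% of protein-coding genes. A distal site with both lists was present at 8 of the 18 loci (44.4%), against 12.8% of protein-coding loci. It is not particular to this list, as the limb mesenchyme genes described below had such a site at 10 of 15 loci (66.7%) and the cartilage genes at 2 of 6 (33.3%). Many of these regulators are known from limb mesenchyme or other tissues as well as from muscle.

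The ligands that the limb offers to migrating precursors are Hgf for Met, Cxcl12 for the receptor Cxcr4 and Efna5 for Epha4. These 3 genes had neither RNAP2 nor Med12 at a start, against 42.2% and 9.37% of protein-coding genes. The Hgf locus held no RNAP2 peak and 1 Med12 peak. Cxcl12 and Efna5 had 3 and 2 distal RNAP2 peaks, and 2 and 4 distal Med12 peaks. A distal RNAP2 peak was present at 40.7% of protein-coding loci and a distal Med12 peak at 34.9%. A distal site with both lists was present at 2 of the 3 loci, against 12.8%. Of the receptors of these ligands, which were named after their values were seen, Cxcr4 had an RNAP2 start peak with a score of 84.3 and Epha4 one with a score of 1709. Met, as described, had its RNAP2 in intron 1.

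Of 28 genes of muscle differentiation, such as those of actins, myosins and troponins, 1 (3.57%) had an RNAP2 peak at a start, against 42.2% of protein-coding genes. It was Myl4, an embryonic myosin light chain. Its peak, with a score of 985, also lay at a start of Cdc27 and overlapped Med12 there, so it cannot be assigned to Myl4. No other gene of the list had a peak of either protein at a start. Med12 was therefore also at 1 of 28, against 9.37% of protein-coding genes.

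Markers of the other cells in the dissected tissue give the frame for these counts. The shares of all protein-coding genes with a peak at a start were 42.2% for RNAP2 and 9.37% for Med12. RNAP2 was at a start in 14 of 15 genes of limb mesenchyme, with a median score of 1549, and Med12 in 6 of 15, namely Prrx1, Prrx2, Twist1, Hand2, Sall1 and Pdgfra. The labelled limb tissue thus carried RNAP2 at nearly all of its mesenchymal markers. In cartilage genes the counts were 4 and 1 of 6, the latter being Sox6. RNAP2 was at 0 of 9 starts of ectoderm genes, 2 of 9 of endothelium, 0 of 5 of blood and 2 of 6 of Schwann cells, and Med12 at 0, 1 (Erg), 0 and 0 of them. The muscle lineage had 4 of 8 and 0 of 8, near the shares of all protein-coding genes. Its start scores of 62.9 to 283 were all below the mesenchymal median. With a peak that covers a start, or with a score of at least 100, 1 of the 8 was left, so the count does not settle a rank among the cell types. The share of muscle precursors in the dissected tissue was not measured, and its part in these values was not tested.

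**Figure D4:**
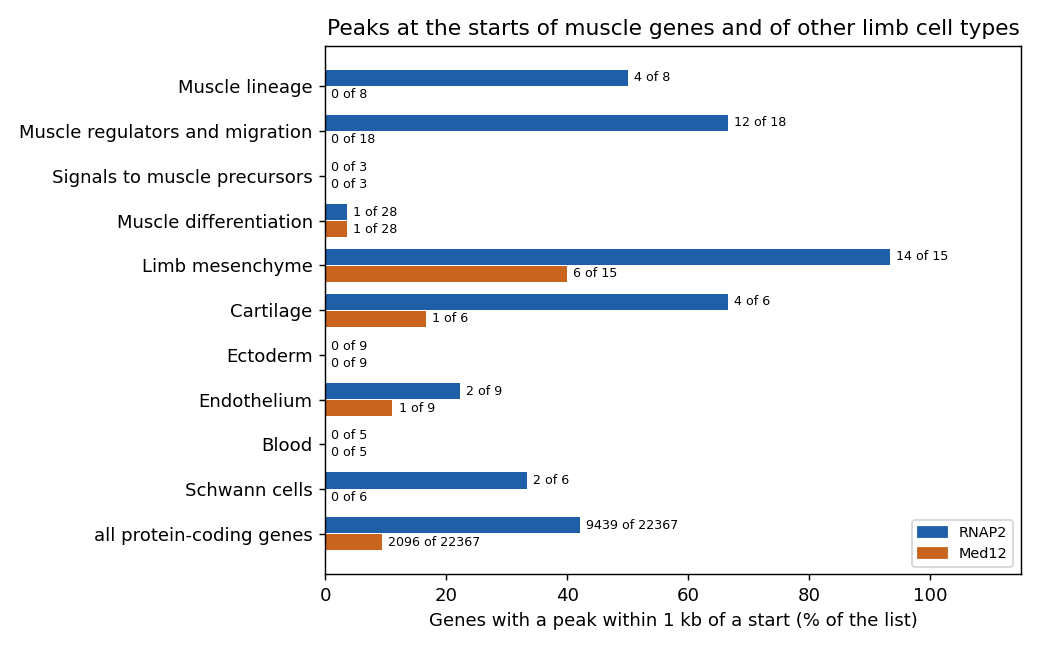
Percentage of genes in each list with a peak within 1 kb of a start, RNAP2 in blue and Med12 in orange, with the counts beside the bars. The 8 lineage genes have RNAP2 at 4 and Med12 at 0, limb mesenchyme genes at 14 and 6 of 15, and muscle differentiation genes at 1 and 1 of 28. For all protein-coding genes the values are 42.2% and 9.37%.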

How the data were processed

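Chromatin of dissociated distal forelimbs was precipitated for RNAP2 and for Med12, and an input was kept, each as 1 library. The sample labels give E12.5, the text of the series a stage earlier by a day. Per the labels and the methods, the authors mapped reads to mm9 with Bowtie and called peaks with MACS 1.4.1 for each antibody. The deposited value of a peak is the score written by the authors' peak caller, -log10 of a p-value multiplied by 10. Whether the input served as control is not given in the sources used here, and no file of the input was used. The methods give a p-value of 1e-05, a score of 50, but the lowest deposited score is 40, and 2897 RNAP2 and 3816 Med12 peaks are under 50. The lists hold no counts, so depth at a peak is unknown.

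Positions were counted from 1. All peak ends lay within the mm9 chromosome lengths. An overlap of 1 bp or more with GENCODE vM1 features (chromosomes 1 to 19, X and Y) was required. Scripts ran in Python 3.11.15 (numpy 2.4.6). Calls at starts were the same genes as with bedtools 2.31.1 and were tested on simulated data. Intervals are 95% Wilson intervals from scipy 1.17.1 and cover counting error alone. No test between groups was possible with 1 library per antibody. Figures were drawn with matplotlib 3.10.9. RefSeq promoters (GRCm38.p6) were matched by sequence to mm9 for 4 of the 8 genes.

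Named were all 8 genes, every peak at their loci with the gene whose start it lies on, lists of 3 or fewer genes and listed genes with both proteins at a start. Cxcr4, Epha4, Kcnc1 and the genes at peaks beyond the loci were named after their values were seen. The genes and lists were chosen with earlier results of these data known. Alternatives were a score of at least 100 or 50, start intervals of 5 kb, the gene start alone, a peak covering the start, windows of 50 kb and 200 kb, an overlap of 50% of the shorter peak, and a gap of up to 500 bp.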

Additional observations from a re-analysis of the deposited data

How the results depend on the processing

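No paired analysis was possible because the antibodies were used once each, without numbered replicates or a test. Of 34 recomputed values for the main counts and shares, 13 stayed within 1.5 times the reported count or within the interval of the reported share, and 21 moved beyond. A score of at least 100 left 1 gene of the 8 with RNAP2 at a start (Pax3), 9 RNAP2 peaks, 0 Med12 peaks and 0 distal sites with both lists, and the shares of protein-coding genes became 35.6% for RNAP2 and 2.36% for Med12. A score of at least 50, chosen after the data were seen, left 1 Med12 peak and 0 sites with both, with shares of 40.8% and 6.97%. With 5 kb on each side of a start, Met gained both proteins, so 5 genes had RNAP2 at a start and 1 had Med12. At this setting 0 distal sites with both lists were left, and the shares were 45.3% and 12.6%. The gene start alone left 3 genes with RNAP2, without Pax7, and gave shares of 40.03% and 8.20%. Requiring the peak to cover a start, also chosen after the data were seen, left 1 gene with RNAP2 (Pax3), with shares of 40.7% and 7.54%. A window of 200 kb gave 4 Med12 peaks and 2 distal sites with both lists. Most of these moves follow from fewer peaks or a narrower interval by construction. Without counts or replicates, an absent peak is an absence from the list and not of binding.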
